A study of Mus musculus with 10 samples.

Results

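The genes described are 33 genes of glycolysis and of the response to low oxygen, chosen by name from known genes of these pathways: 18 encode glucose and lactate carriers, enzymes of glycolysis and their switches, and 15 are well-known targets of the hypoxia-inducible factors. All 33 were among the 45706 genes of the table, and all 33 passed the filter on low counts that 14550 genes passed. They were measured by 3′ mRNA sequencing (QuantSeq FWD, which counts reads from the 3′ end of each transcript) in whole melanomas removed on day 4 from C57BL/6 hosts that were 8 weeks old at the time. The tumors came from a mouse melanoma line driven by BRAF V600E, which either kept Ptgs1 and Ptgs2, the genes of the prostaglandin-producing enzymes COX-1 and COX-2, or had both disrupted by CRISPR/Cas9. The Ptgs+/+ group had 4 tumors and the Ptgs-/- group 3, all from mice that received no antibody, and a further 3 Ptgs-/- tumors came from mice depleted of NK cells (NK-depleted). Per the labels these last mice received 200 µg of anti-NK1.1 (PK136) with 30 µg of anti-asialo GM1 on days 0 and 2. The study's methods give another schedule. No NK-depleted Ptgs+/+ tumor was analysed here, so an effect of depletion can be read in Ptgs-/- tumors alone. How many clones make up the Ptgs-/- line is not given in the sources used here. A host keeps its own Ptgs1 and Ptgs2, and whole tumors hold host cells.

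Cells break glucose down to pyruvate by glycolysis. When oxygen is short, pyruvate is turned into lactate rather than entering the mitochondria, and the hypoxia-inducible factors (HIFs) switch on genes for glucose uptake, glycolysis, pH control and blood vessel growth. HIFs are held low in oxygenated cells by prolyl hydroxylases, which mark the HIF alpha subunits for destruction, so HIF activity is set largely at the level of protein. In tumors these genes are switched on by poor blood supply, by oncogenic signaling and in activated immune cells.

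HIFs bind a short DNA core, ACGTG or GCGTG, and the members were searched for it in the 250 bases before each RefSeq transcript start (GRCm38.p6) on both strands. A start was found for 30 of 33 members. Ndrg1, Bnip3l and Slc2a3 had none in the table used. Either core was present before a start in 28 of these 30 members (93.3%), against 41.5% of all 27025 genes of that table. Gpi1 and Tpi1 held neither. Counted over starts, it was present in 37 of 46 member starts (80.4%) and in 38.6% of all 32851 starts. The cores contain CG, and the member windows had a median GC content of 64% against 52.4% over all starts. The palindrome CACGTG, bound by other factors too, holds ACGTG on both strands and lay in 4 member starts and in 6.02% of all starts. The match is a description of these letters and not of a bound site.

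The windows of 4 members are shown that passed the test described below, have a single start and hold a core, since 3 of them were higher and 1 was lower in Ptgs-/- tumors. Gpi1, the fifth that passed with a single start, is left out for want of a core. Each window ends at the base before the start, runs 5′ to 3′ on the gene's own strand and has every core in capitals, read on either strand. Hk2 is at chr6:82774455-82774704 (minus strand), Ankrd37 at chr8:45999851-46000100 (minus), P4ha1 at chr10:59323046-59323295 (plus) and Adm at chr7:110627407-110627656 (plus).
Hk2: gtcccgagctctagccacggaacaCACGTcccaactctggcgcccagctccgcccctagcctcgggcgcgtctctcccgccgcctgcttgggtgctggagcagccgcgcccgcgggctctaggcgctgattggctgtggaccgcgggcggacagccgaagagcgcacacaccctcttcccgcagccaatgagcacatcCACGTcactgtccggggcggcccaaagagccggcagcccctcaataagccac
Ankrd37: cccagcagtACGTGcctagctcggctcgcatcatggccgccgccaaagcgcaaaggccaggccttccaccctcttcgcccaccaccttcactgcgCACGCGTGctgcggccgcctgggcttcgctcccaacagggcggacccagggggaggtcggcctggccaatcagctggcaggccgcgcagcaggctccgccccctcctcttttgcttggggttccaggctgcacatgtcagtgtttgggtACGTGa
P4ha1: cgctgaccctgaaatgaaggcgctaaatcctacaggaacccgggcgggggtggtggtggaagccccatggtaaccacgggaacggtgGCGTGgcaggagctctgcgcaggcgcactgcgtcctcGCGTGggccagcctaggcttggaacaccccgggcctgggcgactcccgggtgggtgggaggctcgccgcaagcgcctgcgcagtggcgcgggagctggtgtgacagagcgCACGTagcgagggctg
Adm: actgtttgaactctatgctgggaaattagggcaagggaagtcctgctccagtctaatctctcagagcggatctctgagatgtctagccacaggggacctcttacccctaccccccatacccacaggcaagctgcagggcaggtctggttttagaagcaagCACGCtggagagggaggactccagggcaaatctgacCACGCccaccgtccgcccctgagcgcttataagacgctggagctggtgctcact
The 2 cores of Hk2 were both ACGTG. Ankrd37 held 2 ACGTG and 2 GCGTG, and 2 of these overlap each other. P4ha1 held 1 ACGTG and 2 GCGTG. Adm held 2 GCGTG and no ACGTG.

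The 10 libraries held 8150556 to 12839174 counts, and 3 counts, taken as the floor, were 0.234 to 0.368 CPM (counts scaled to a common library total). The 33 members together took 0.375% to 0.804% of each library's counts. Both targeted genes were lower in every Ptgs-/- library, with Ptgs2 at 94.4 to 347 CPM in Ptgs+/+ tumors, 27 to 74.8 in Ptgs-/- tumors and 40.2 to 49.3 after depletion. Where the edited sites lie relative to these 3′ reads is not given in the sources used here. Melanocyte markers were low in every library (35.1 to 79.3 CPM summed over 9 genes, of which 4 passed the filter), so the labelled tissue is not well marked by pigment genes. The codes in the sample titles are EB042 for Ptgs+/+ replicate 4 and Ptgs-/- replicate 3 and EB046 for the rest. The labels do not say what the codes stand for.

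One library at each end set much of the range of these genes. Ptgs-/- replicate 1 had the highest CPM of all 10 libraries for 26 of 33 members, and Ptgs+/+ replicate 2 had the lowest for 28 of 33. Within the Ptgs-/- group, replicate 1 was highest for 14 of 18 glycolysis members and 14 of 15 hypoxia response members. The same library also had the fewest counts of the 10, and its summed endothelial markers (227 CPM against 379.7 to 655 in the others) and adipocyte markers (449 against 1775 to 8793) were the lowest of the 10. Their part in the member values was not tested. In Ptgs+/+ replicate 2 the sum of 10 proliferation markers was the highest of the 10 (2652 CPM against 1146 to 2357) and the sum of macrophage markers the lowest (2701 against 3057 to 7252), and the part of these was not tested either. Because each library is a whole tumor, fewer cells of one type and less RNA per cell cannot be told apart in any value given here.

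**Figure D1:**
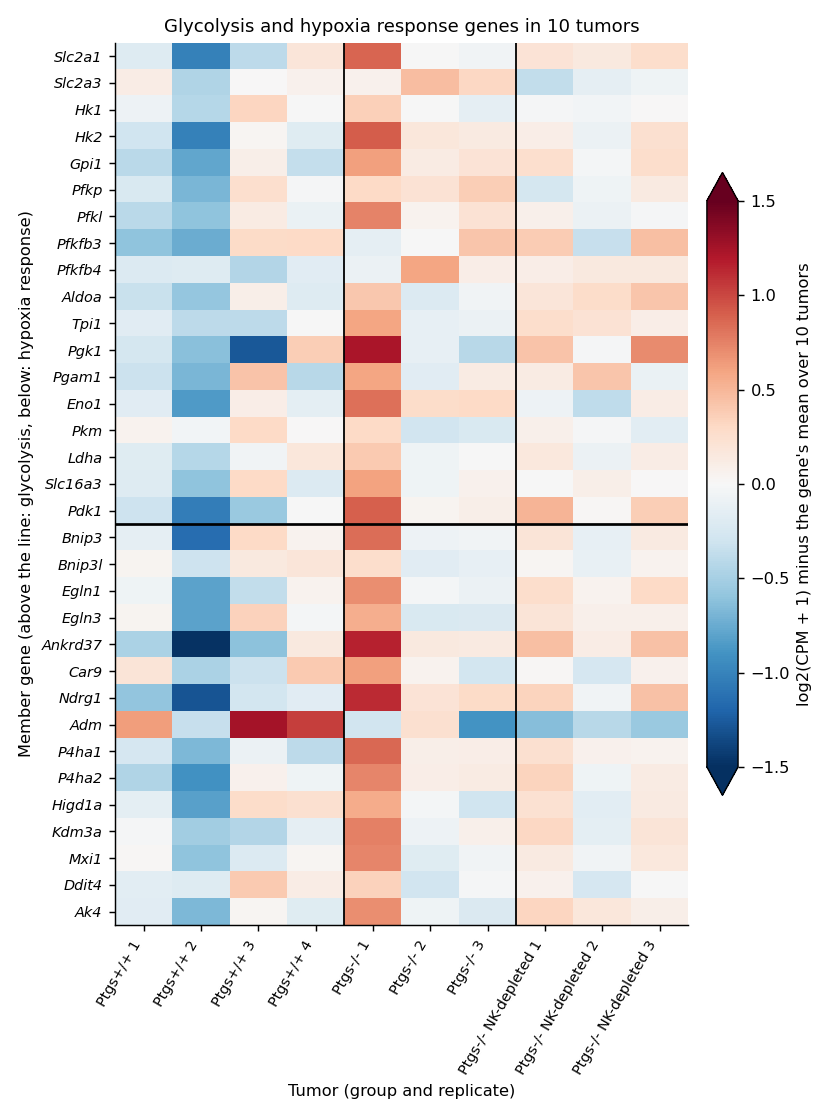
Heatmap of the 33 members (rows, glycolysis above the line and hypoxia response below) in 10 tumors (columns), colored by log2(CPM + 1) minus the gene's mean over the 10 tumors. Ptgs-/- replicate 1 is the darkest red column (highest for 26 of 33 members), Ptgs+/+ replicate 2 the darkest blue (lowest for 28 of 33), and Adm runs against the other rows.

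A score per tumor, the mean of log2(CPM + 1) over the 33 members, was 6.18, 5.68, 6.34 and 6.37 in the 4 Ptgs+/+ tumors, 6.93, 6.37 and 6.35 in the 3 Ptgs-/- tumors and 6.49, 6.32 and 6.5 in the 3 NK-depleted tumors. The group means were 6.14 ± 0.32 (SD, n = 4), 6.55 ± 0.33 (SD, n = 3) and 6.44 ± 0.10 (SD, n = 3). Ptgs-/- replicate 3 lay within the Ptgs+/+ range and replicate 2 at its upper end (6.37 each), and the Ptgs-/- range also overlapped that of the NK-depleted tumors. On the 18 glycolysis members alone all 3 Ptgs-/- tumors (6.59 to 7.07) lay above all 4 Ptgs+/+ tumors (5.92 to 6.51). All 3 NK-depleted tumors (6.55 to 6.71) did so too. On the 15 hypoxia response members Ptgs-/- (6.03 to 6.77) and NK-depleted tumors (6.05 to 6.29) both overlapped the Ptgs+/+ tumors (5.39 to 6.21). NK-depleted tumors were the most alike: the median coefficient of variation of a member's CPM within the group was 11%, against 25.7% in Ptgs+/+ and 31.2% in Ptgs-/- tumors.

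**Figure D2:**
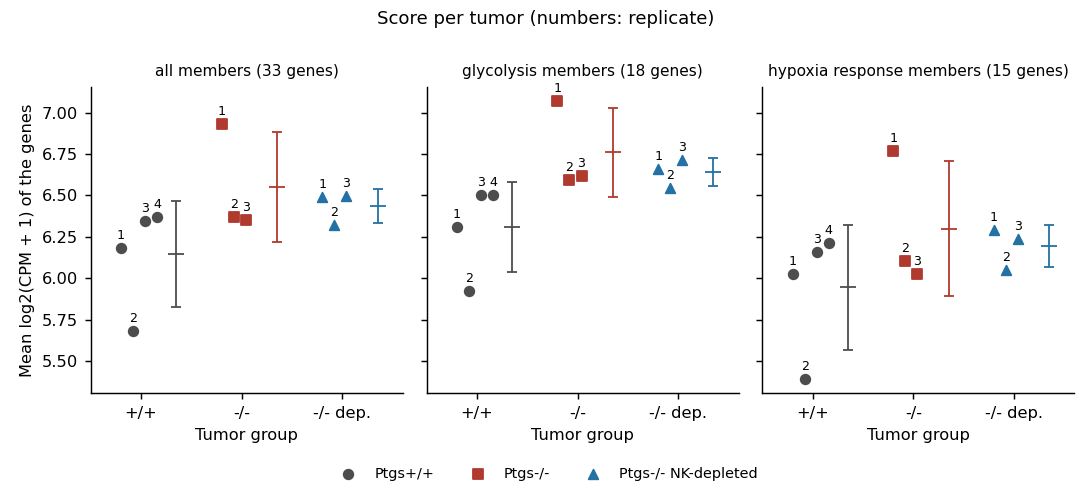
Score per tumor (y axis, mean log2(CPM + 1)) for all 33 members, the 18 glycolysis members and the 15 hypoxia response members, by tumor group, with points numbered by replicate and bars giving the mean ± SD. Over all members Ptgs-/- replicate 1 stands at 6.93 and Ptgs+/+ replicate 2 at 5.68, and the other 8 tumors lie between 6.18 and 6.5.

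The first comparison, Ptgs-/- against Ptgs+/+ tumors of mice that received no antibody, asked what changes in a tumor once its cells no longer make prostaglandins through COX. 8 of 33 members (24.2%) passed at an adjusted p at or under 0.05 in the quasi-likelihood test of edgeR, against 23.1% of all genes tested. 7 were higher (21.2% of members, background 12.1%): the glycolysis genes Hk2, Gpi1, Eno1 and Pdk1 and the hypoxia targets Ankrd37, Ndrg1 and P4ha1. Adm was lower. No member reached the study's own rule, which also asks for a log2 fold change of 1.5 (background 4.15%). At an unadjusted p under 0.05 the count was 13. The share of all genes at that looser cut-off is not given here, so this count cannot be set against a background. The fitted log2 fold change lay above 0 for 29 of 33 members (49.3% of all genes) with a median of 0.38, against -0.006 over all genes. In 8 members all 3 Ptgs-/- libraries lay above all 4 Ptgs+/+ libraries, which is 24.2% against a background of 18.1%. DESeq2 called 11 members (33.3%), against 24.9% of all genes. Skeletal muscle markers were higher as well: 6 of 13 tested passed, 13 of 13 lay above 0 with a median of 1.63, and their summed level was 134 to 439 CPM in Ptgs-/- against 32.1 to 197 in Ptgs+/+ tumors. Their part in the member values was not tested.

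These calls rest on few libraries. Without Ptgs-/- replicate 1, none of the 8 passed and 2 other members did (6.06%, background 21.3%), and the median fell to 0.14. Leaving out Ptgs+/+ replicate 1, 2, 3 or 4 gave 2, 2, 9 and 3 members, leaving out Ptgs-/- replicate 2 or 3 gave 6 and 7, and leaving out a library of the NK-depleted group, which enters this comparison through the estimate of the spread, the filter and the scaling, gave 3, 4 and 4. The share of all genes that passed in these 10 fits was 13.9% to 26.9%. With the title code as a term 3 members passed (9.09%, against 20.8% of all genes) and within the EB046 libraries 5 (15.2%, against 15.1%). Code EB042 holds 1 library of either group and gives no value of its own.

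Uptake and the first steps came first in the order of the pathway. Slc2a1 (GLUT1, the main glucose carrier of tumor cells) stood at 129.8, 73.2, 112 and 168 CPM in Ptgs+/+ tumors, 272, 148 and 143 in Ptgs-/- tumors and 171, 164 and 179 after depletion. The Ptgs-/- libraries other than replicate 1 lay inside the Ptgs+/+ range, and the gene did not pass (log2 fold change 0.58, SE 0.26, edgeR adjusted p = 0.133). Slc2a3 (GLUT3, a carrier of high affinity) had few counts, at 3.81 to 8.07 CPM over the 10 libraries, and a log2 fold change of 0.34 (SE 0.20, edgeR adjusted p = 0.26). Hk2, the hexokinase that traps glucose in the cell and is induced in many tumors, was at 107, 65.4, 135 and 117 CPM in Ptgs+/+ tumors against 249, 149 and 146 in Ptgs-/- tumors. Its groups did not overlap, and the log2 fold change was 0.72 (SE 0.23, edgeR adjusted p = 0.0461). Hk1, the constitutive hexokinase, lay within 98.1 to 170.2 CPM in all 10 libraries with a log2 fold change of 0.05 (SE 0.16, edgeR adjusted p = 0.858). The ratio of Hk2 to Hk1 CPM within a library was accordingly 0.67 to 0.88 in Ptgs+/+ tumors and 1.13 to 1.46 in Ptgs-/- tumors, with 0.97 to 1.17 after depletion, given here without a test. Separation on this ratio follows from the values of Hk2 in these same libraries and is no evidence beyond them.

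Gpi1, which converts glucose 6-phosphate to fructose 6-phosphate, was at 303, 233, 425 and 312 CPM in Ptgs+/+ and 613, 437 and 463 in Ptgs-/- tumors. All Ptgs-/- libraries were higher, though replicate 2 only just cleared Ptgs+/+ replicate 3, and the log2 fold change was 0.61 (SE 0.18, edgeR adjusted p = 0.0336). The phosphofructokinases that commit sugar to glycolysis stood close to that threshold or short of it: Pfkl had a log2 fold change of 0.54 (SE 0.19, edgeR adjusted p = 0.0583) and Pfkp of 0.38 (SE 0.18, edgeR adjusted p = 0.157). Of the bifunctional enzymes that set the level of their activator fructose 2,6-bisphosphate, Pfkfb3 varied widely within every group (32.4 to 67.7 CPM in Ptgs+/+ and 49.8 to 73.2 in Ptgs-/- tumors). Pfkfb4 was at 19.9, 20.2, 16.9 and 20.5 CPM in Ptgs+/+ and 21.8, 35.5 and 25.0 in Ptgs-/- tumors. It was higher in every Ptgs-/- library, and unlike most members its highest value was in replicate 2. Pfkfb4 missed the threshold with all libraries (log2 fold change 0.45, SE 0.16, edgeR adjusted p = 0.0643) and passed without Ptgs-/- replicate 1 (0.58, SE 0.16, edgeR adjusted p = 0.0247).

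In the later steps of the pathway, Eno1 (enolase) was at 53.6, 33.2, 64.8 and 54.7 CPM in Ptgs+/+ and 108, 73.7 and 74.6 in Ptgs-/- tumors. The groups did not overlap and the log2 fold change was 0.67 (SE 0.21, edgeR adjusted p = 0.0399). The other enzymes between aldolase and lactate dehydrogenase did not pass, with log2 fold changes from -0.19 (Pkm, the last step to pyruvate) to 0.74 (Pgk1, phosphoglycerate kinase). Aldoa had 512 to 812 CPM in Ptgs+/+ and 663 to 1014 in Ptgs-/- tumors, and Tpi1 (triosephosphate isomerase) 193 to 252 against 233 to 383. Pgk1 and Pgam1 (phosphoglycerate mutase) had few counts, at 4.65 to 30.8 and 1.65 to 5.4 CPM over the 10 libraries, and correspondingly large standard errors of 0.45 and 0.36. Pkm was at 941, 876, 1109 and 908 CPM in Ptgs+/+ tumors and 1109, 738 and 773 in Ptgs-/- tumors. Replicates 2 and 3 of the Ptgs-/- group lay below every Ptgs+/+ library and replicate 1 at the top. Pkm passed as lower only without Ptgs-/- replicate 1 among the settings that leave out 1 library (log2 fold change -0.41, SE 0.12, edgeR adjusted p = 0.0362). Ldha, which makes lactate, had 424 to 643 CPM against 548 to 754 (log2 fold change 0.18, SE 0.15, edgeR adjusted p = 0.412), and Slc16a3 (MCT4, which exports lactate) 186 to 346 against 268 to 429 (0.31, SE 0.20, edgeR adjusted p = 0.284). For each of them the groups overlapped. Pdk1, the kinase that keeps pyruvate out of the mitochondria by inhibiting pyruvate dehydrogenase, was at 69.5, 41.4, 58.6 and 86 CPM in Ptgs+/+ and 162, 88.6 and 91.6 in Ptgs-/- tumors. Its groups were separate by a narrow margin, between Ptgs+/+ replicate 4 and Ptgs-/- replicate 2, and the log2 fold change was 0.78 (SE 0.25, edgeR adjusted p = 0.0436).

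Several glycolysis genes have processed pseudogenes, and how the counting treated reads that map to several genes is not stated. Of the 50-base windows in the last 500 bases of the annotated coding transcripts, 68.1% of those of Eno1 occur in transcripts of other genes, as do 27.4% of those of Gpi1. 11 of 33 members share any window and 22 share none, Hk2, Pdk1, Ankrd37, Ndrg1, Adm and P4ha1 among the latter. The levels of Eno1 and Gpi1 are therefore uncertain. So, to a degree, are those of other members that share windows, such as Ak4 (33.4%), Bnip3 (24.4%), Pkm (19.3%), Ldha (12.8%) and Aldoa (12.7%). Gapdh, a glycolysis enzyme and a common reference gene, shares 63.2% of its windows and is uncertain too: it was at 67.7, 48.9, 40.3 and 86.5 CPM in Ptgs+/+, 139.5, 95.8 and 68.9 in Ptgs-/- and 121, 94.7 and 119 in NK-depleted Ptgs-/- tumors, with a log2 fold change of 0.68 (SE 0.26, edgeR adjusted p = 0.0836) in the first comparison. Exons of 12 members overlap an antisense gene, Gpi1, Ankrd37 and Ndrg1 included, and whether the counting used the strand is not stated.

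Among the hypoxia targets, Ndrg1 had the largest log2 fold change of the 33. This stress-responsive gene was at 184, 112, 228 and 245 CPM in Ptgs+/+ tumors and 601, 319 and 338 in Ptgs-/- tumors, and at 349, 267 and 376 after depletion. All 6 Ptgs-/- libraries of both host groups lay above all 4 Ptgs+/+ libraries. The log2 fold change was 1.07 (SE 0.27, edgeR adjusted p = 0.0145), and it passed in 19 of 20 other settings, the exception being the fit without Ptgs-/- replicate 1 (0.71, SE 0.24, edgeR adjusted p = 0.0577). Ndrg1 (ENSMUSG00000005125) lies at chr15:66929318-66969640 on the minus strand of GRCm38.

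P4ha1, the catalytic subunit of the prolyl 4-hydroxylase that collagen needs, was at 129, 95.6, 144 and 116 CPM in Ptgs+/+ and 279, 163 and 164 in Ptgs-/- tumors. No library overlapped, and the log2 fold change was 0.68 (SE 0.19, edgeR adjusted p = 0.0253). Another form of this subunit, P4ha2, was also higher in every Ptgs-/- library (60.7 to 94.2 against 29.7 to 59.1 CPM) without passing (log2 fold change 0.60, SE 0.22, edgeR adjusted p = 0.0779). Ankrd37, a small ankyrin repeat protein known as a HIF target, was at 23.6, 11.2, 21.4 and 37.0 CPM in Ptgs+/+ and 75.0, 36.8 and 36.5 in Ptgs-/- tumors. Ptgs+/+ replicate 4 lay inside the Ptgs-/- range, and the log2 fold change of 1.03 (SE 0.34, edgeR adjusted p = 0.046) held in 8 of 20 other settings.

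Adm ran the other way. It encodes adrenomedullin, a peptide that dilates vessels and promotes their growth, and was at 109.5, 55.3, 169 and 146 CPM in Ptgs+/+ tumors, 57.4, 83.4 and 37.5 in Ptgs-/- tumors and 44.8, 52.4 and 47.6 in NK-depleted Ptgs-/- tumors. Ptgs+/+ replicate 2 lay inside the Ptgs-/- range, and the other 3 Ptgs+/+ tumors lay above all 6 Ptgs-/- tumors. The log2 fold change was -1.06 (SE 0.34, edgeR adjusted p = 0.0412) between the first 2 groups and passed in 7 of 20 other settings. Within a library, the ratio of Ndrg1 to Adm CPM was 1.35 to 2.03 in Ptgs+/+ tumors. It was 3.82 to 10.5 in Ptgs-/- tumors and 5.10 to 7.90 after depletion. Neither Ptgs-/- group overlapped the Ptgs+/+ tumors on this ratio, which was not tested. The pair joins the member with the largest log2 fold change and the only member that passed as lower, both taken from these same libraries. Separation on the ratio follows in part from that choice and is no evidence beyond the values of either gene. Endothelial markers were lower in Ptgs-/- tumors as well (3 of 10 past the threshold, summed level 227 to 528 against 596 to 655 CPM, with 379.7 to 570 after depletion and no marker at 0 throughout), and their part in the Adm value was not tested.

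The other hypoxia members did not pass. The oxygen-sensing prolyl hydroxylases differed from each other: Egln1 (PHD2) had a log2 fold change of 0.45 (SE 0.22, edgeR adjusted p = 0.162) and Egln3 (PHD3) of 0.08 (SE 0.26, edgeR adjusted p = 0.869), a difference that was not tested. Bnip3 and Bnip3l, which mark mitochondria for removal, had log2 fold changes of 0.39 (SE 0.30, edgeR adjusted p = 0.382) and -0.08 (SE 0.14, edgeR adjusted p = 0.713). Bnip3 was at 149.5, 74.2, 202 and 171 CPM in Ptgs+/+, 294, 155 and 159 in Ptgs-/- and 189, 151 and 181 in NK-depleted tumors, so that Ptgs-/- replicate 1 alone exceeded the Ptgs+/+ range. Car9, the carbonic anhydrase that tumors use against acid and a common marker of hypoxia, was low throughout at 5.15 to 12 CPM and had a log2 fold change of 0.15 (SE 0.28, edgeR adjusted p = 0.74). Kdm3a (a histone demethylase), Ak4 (a mitochondrial adenylate kinase), Mxi1 (an antagonist of MYC), Higd1a (a mitochondrial protein) and Ddit4 (an inhibitor of mTORC1) lay between -0.07 and 0.52. The largest of these was Kdm3a, at 27.5 to 39.3 CPM in Ptgs+/+ and 67.8, 37.9 and 42.1 in Ptgs-/- tumors (SE 0.21, edgeR adjusted p = 0.0923), and the lowest Ddit4, at 133 to 199 against 125 to 194.

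**Figure D3:**
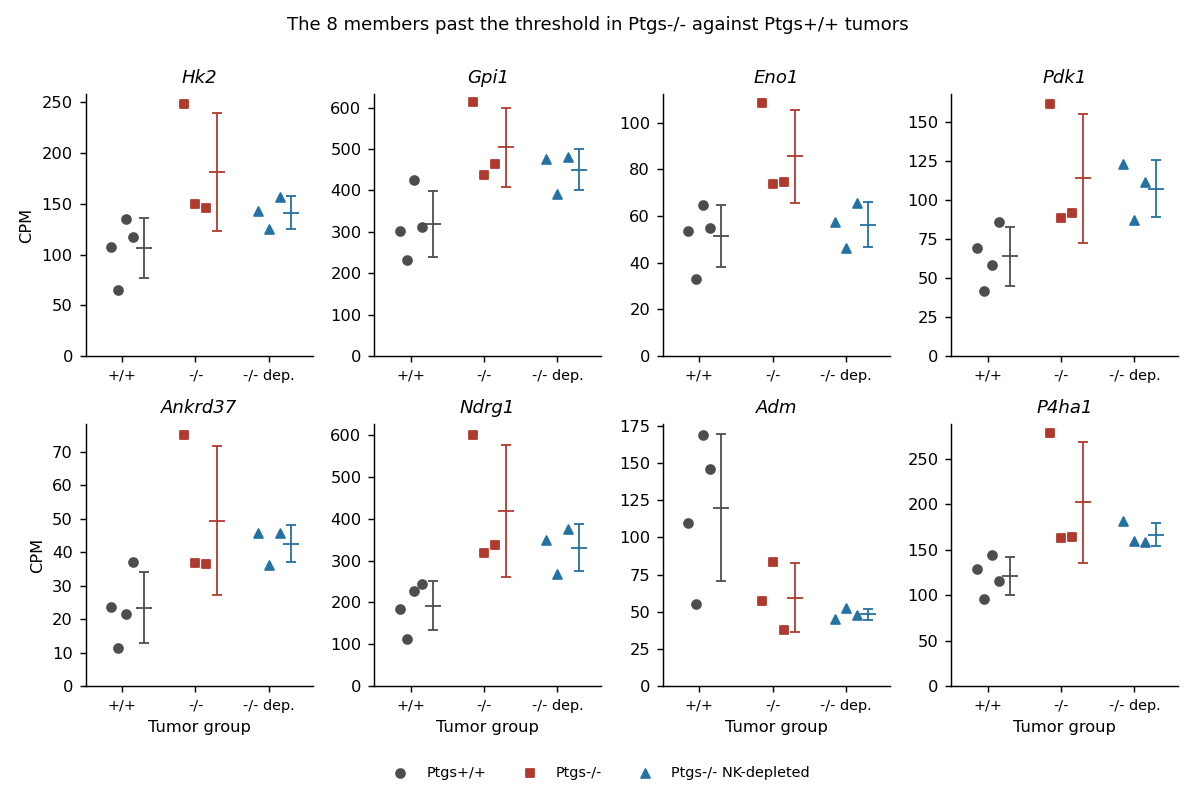
CPM (y axis, from 0) of the 8 members past the threshold in Ptgs-/- against Ptgs+/+ tumors, each point 1 tumor, with bars giving the mean ± SD for Ptgs+/+ (n = 4), Ptgs-/- (n = 3) and Ptgs-/- NK-depleted (n = 3). In the 7 members that were higher, Ptgs-/- replicate 1 is the highest point, at 601 CPM for Ndrg1 against 319 and 338 in the other Ptgs-/- tumors.

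The second comparison, between NK-competent and NK-depleted Ptgs-/- tumors, asked what the NK cells add. None of the 33 members passed with edgeR's quasi-likelihood test (background 1.44% of all genes), none passed with DESeq2 or under any of the other settings run, and 2, Slc2a3 and Eno1, had an unadjusted p under 0.05. The median log2 fold change of the members was 0.11 against -0.013 over all genes, and it turned to -0.13 without Ptgs-/- replicate 1. Eno1 had the largest difference at 0.58 (SE 0.23, edgeR adjusted p = 0.365), with all 3 NK-competent tumors (73.7 to 108 CPM) above the depleted ones (46.2 to 65.6). Aldoa had the lowest at -0.25 (SE 0.18, edgeR adjusted p = 0.676). Standard errors lay between 0.15 and 0.47.

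The third comparison, NK-depleted Ptgs-/- against Ptgs+/+ tumors, shares its groups with the other two and combines the loss of COX with the depletion. 1 member (3.03%) passed with edgeR's quasi-likelihood test, against a background of 12.5%, and DESeq2 called 4 (12.1%, against 15.6% of all genes). The member was Adm, lower by a log2 fold change of -1.34 (SE 0.34, edgeR adjusted p = 0.0257), with no overlap between 44.8 to 52.4 and 55.3 to 169 CPM. It did not pass when Ptgs+/+ replicate 4 or any 1 of the 3 NK-depleted libraries was left out (edgeR adjusted p up to 0.101). The count was 6 without Ptgs-/- replicate 1 (18.2%, against 13.9% of all genes), where Aldoa, Tpi1, Pdk1, Ndrg1 and P4ha1 also passed as higher. It was 3 without Ptgs+/+ replicate 3 (9.09%, against 14.7% of all genes). The 7 members that were higher in the first comparison had log2 fold changes here of 0.38 (Hk2), 0.47 (Gpi1), 0.09 (Eno1), 0.72 (Pdk1), 0.84 (Ankrd37), 0.75 (Ndrg1) and 0.43 (P4ha1), with adjusted p-values from 0.0859 to 0.828. The levels behind them in the 3 NK-depleted tumors were 143, 125 and 157 CPM for Hk2, 477, 392 and 479.7 for Gpi1, and 57.2, 46.2 and 65.6 for Eno1. They were 123, 87.5 and 112 CPM for Pdk1, 45.7, 36.1 and 45.6 for Ankrd37, and 181, 160.1 and 159 for P4ha1. For Pdk1, Ndrg1 and P4ha1 these libraries lay above all Ptgs+/+ libraries, and for Hk2, Gpi1, Eno1 and Ankrd37 the groups overlapped. Aldoa, aldolase, was higher in every depleted library (867, 931 and 1025 against 512 to 812 CPM) without passing (log2 fold change 0.50, SE 0.17, edgeR adjusted p = 0.0764). The median over the members was 0.29 against -0.0058 over all genes, and 26 of 33 lay above 0 (49.3% of all genes).

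**Figure D4:**
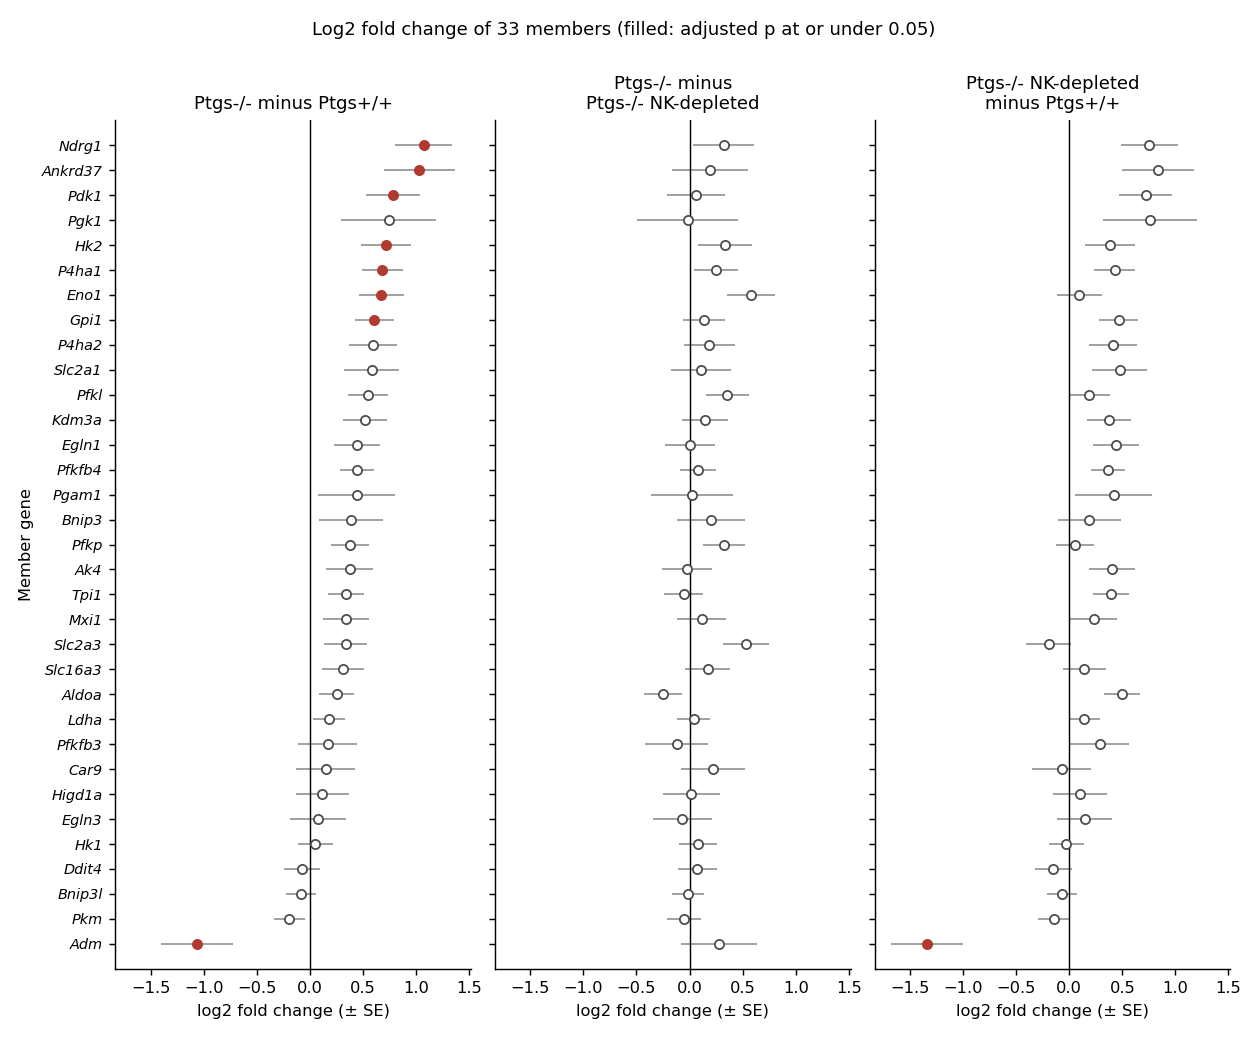
Log2 fold change with its standard error (x axis) of the 33 members (rows, ordered by the first panel) in the 3 comparisons, filled where the edgeR adjusted p is at or under 0.05. 8 points are filled in the first panel, none in the second and Adm alone in the third, where it lies at -1.34.

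The transcripts of the HIF alpha subunits Hif1a and Epas1 were lower in Ptgs-/- than in Ptgs+/+ tumors. Hif1a (HIF-1 alpha) was at 165, 167, 149.5 and 157 CPM in Ptgs+/+, 114, 95.8 and 116 in Ptgs-/- and 102, 93.7 and 104 in NK-depleted Ptgs-/- tumors. No library of either Ptgs-/- group reached the Ptgs+/+ range. The log2 fold change was -0.62 (SE 0.10, edgeR adjusted p = 0.00121) in the first comparison and -0.71 (SE 0.10, edgeR adjusted p = 0.000752) in the third, and both passed in all 20 other settings. Epas1 (HIF-2 alpha, abundant in endothelial cells) was at 51.4 to 74.7 CPM in Ptgs+/+ and at 12, 27.1 and 46.3 in Ptgs-/- tumors (log2 fold change -1.12, SE 0.32, edgeR adjusted p = 0.0266), and passed in 16 of 20 other settings. Its lowest library was Ptgs-/- replicate 1, which also had the lowest endothelial markers, and their part was not tested. Vhl, which recognizes hydroxylated HIF, was slightly higher in both Ptgs-/- groups (0.34 and 0.33, edgeR adjusted p = 0.0184 and 0.0328), and passed in 16 and 10 of 20 other settings (adjusted p up to 0.0958 and 0.119). Of the 11 HIF factors and regulators tested, 1 was higher and 3 lower in the first comparison (background 12.1% and 11%). None passed in the second (background 1.44%).

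Of further hypoxia targets, a list of 30 genes that are not members, 3 were higher and 3 lower in the first comparison, with a median of 0.14. Of all genes, 12.1% passed as higher and 11% as lower, so these counts were close to the background. Vegfa, the main growth factor for vessels, was at 65.3 to 108 CPM in Ptgs+/+ and at 206, 111 and 120 in Ptgs-/- tumors, higher in each without passing (0.63, SE 0.23, edgeR adjusted p = 0.0733). The lower genes were led by Stc2 (stanniocalcin 2, a secreted glycoprotein, -1.37, SE 0.18, edgeR adjusted p = 0.00052) and Angptl4 (a secreted inhibitor of lipoprotein lipase, -0.87, SE 0.21, edgeR adjusted p = 0.0115), and the higher by Loxl2 (a collagen cross-linking oxidase, 0.74, SE 0.17, edgeR adjusted p = 0.0101). In the third comparison Stc2 was again lower (-1.05, SE 0.18, edgeR adjusted p = 0.00303), as was Hmox1 (heme oxygenase 1, -0.99, SE 0.21, edgeR adjusted p = 0.0117).

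Of 17 further genes of glycolysis and sugar transport tested, 2 were higher and 2 lower in the first comparison. These counts too were close to the background of 12.1% higher and 11% lower. Slc2a6, a glucose carrier with few counts, was at 1.32, 1.34, 0.263 and 0.732 CPM in Ptgs+/+, 2.7, 2.69 and 3.01 in Ptgs-/- and 1.82, 1.38 and 2.19 in NK-depleted tumors. All Ptgs-/- libraries lay above all Ptgs+/+ libraries (log2 fold change 1.54, SE 0.41, edgeR adjusted p = 0.0186), and it passed in 16 of 19 other settings. Adpgk, the ADP-dependent glucokinase, was at 44.5, 43.3, 20.8 and 38.6 CPM in Ptgs+/+ and 23.6, 21.2 and 19.3 in Ptgs-/- tumors. Ptgs+/+ replicate 3 lay inside the Ptgs-/- range, and the log2 fold change of -0.84 (SE 0.22, edgeR adjusted p = 0.0186) passed in 13 of 20 other settings. The other higher gene was Hk3, a hexokinase of blood cells (0.80, SE 0.25, edgeR adjusted p = 0.037), named here after its values were seen, and the other lower one Bpgm. The muscle forms of 3 enzymes were higher in NK-depleted tumors: Pgam2 (phosphoglycerate mutase) was at 18.0, 31.6 and 52.3 CPM there, 0.701 to 1.58 in Ptgs+/+ and 1.37 to 4.03 in NK-competent Ptgs-/- tumors. Eno3 (enolase) was at 31.0 to 46.9 CPM in NK-competent and 114, 151 and 234 in NK-depleted Ptgs-/- tumors. Pfkm (phosphofructokinase) was at 7.02 to 9.52 CPM in the former and 13.2, 21.8 and 34.3 in the latter. For each of the 3 genes every NK-depleted tumor lay above the other 7. The log2 fold changes of the second comparison, coded as competent minus depleted, were -3.51 (SE 0.45, edgeR adjusted p = 0.00213), -2.15 (SE 0.23, edgeR adjusted p = 0.00115) and -1.51 (SE 0.29, edgeR adjusted p = 0.0223). Pgam2 passed there in 19 of 19 other settings, Eno3 in 20 of 20 and Pfkm in 11 of 20 (adjusted p up to 0.173). Skeletal muscle markers moved with them: 12 of 13 tested passed in the same direction, none at 0 in the depleted group, with a summed level of 2703 to 6392 CPM after depletion against 134 to 439 in NK-competent Ptgs-/- and 32.1 to 197 in Ptgs+/+ tumors. The part of muscle in these values, and in that of Aldoa, which muscle also makes in quantity, was not tested. Bpgm, which makes the 2,3-bisphosphoglycerate of red cells, was lower in both Ptgs-/- groups (15.2 ± 1.39 CPM, SD, n = 3, and 18.0 ± 0.781, SD, n = 3, against 32.8 ± 3.5, SD, n = 4). Its log2 fold change was -1.16 (SE 0.12, edgeR adjusted p = 0.000131) in the first comparison, and 4 of 4 red blood cell markers tested were lower there too (summed level 327 to 525 against 535 to 1622 CPM), which was not tested as a source.

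**Figure D5:**
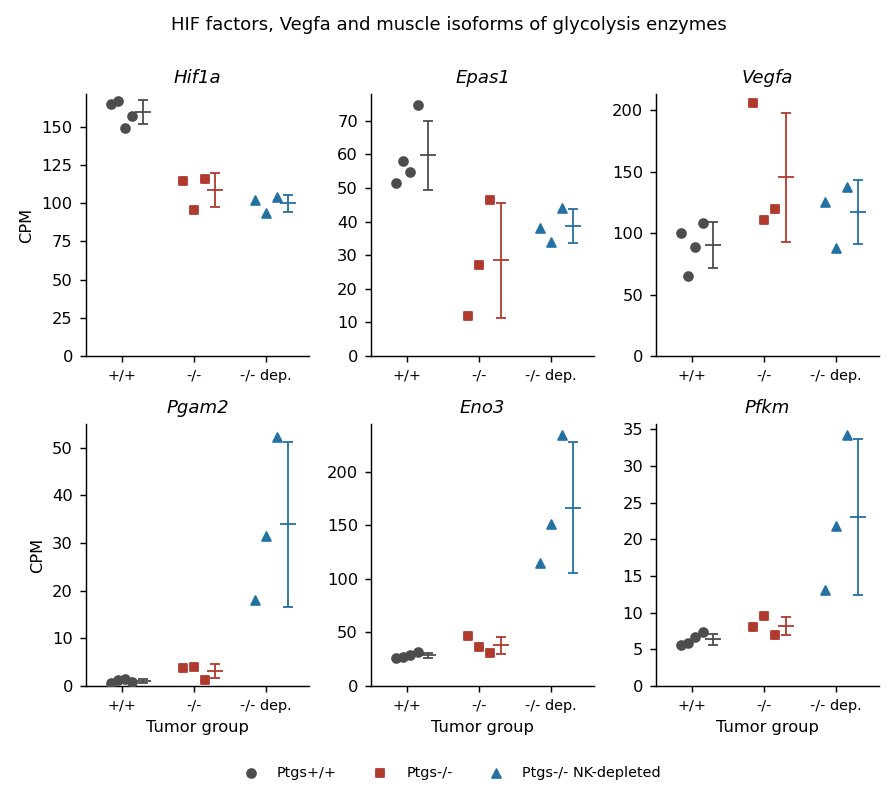
CPM (y axis, from 0) in each tumor of the HIF factors Hif1a and Epas1, of Vegfa and of the muscle enzyme forms Pgam2, Eno3 and Pfkm, with bars giving the mean ± SD by group (n = 4, 3 and 3). Hif1a is lower in all 6 Ptgs-/- tumors (93.7 to 116 CPM) than in Ptgs+/+ tumors (149.5 to 167), and the muscle forms stand out in the NK-depleted tumors.

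Downstream of glycolysis, 4 of 25 subunits of oxidative phosphorylation passed as lower in Ptgs-/- than in Ptgs+/+ tumors and none as higher, where 11% of all genes passed as lower, and their median was -0.19. The log2 fold change was -0.49 for Atp5d (SE 0.11, edgeR adjusted p = 0.00799), which passed in 19 of 20 other settings, and -0.36 for Atp5b (SE 0.10, edgeR adjusted p = 0.0264), which passed in 11 of 20 (adjusted p up to 0.124). In the second comparison all 25 lay below 0 with a median of -0.22, where 48% of all genes lay above 0 with a median of -0.013. None passed with edgeR or DESeq2, with 6 at an unadjusted p under 0.05. Skeletal muscle markers were lower there too, with a summed level of 134 to 439 CPM in NK-competent and 2703 to 6392 in NK-depleted tumors. Their part in the subunit values was not tested. In the third comparison the median of the subunits was -0.001 and none passed with either tool, with 1 at an unadjusted p under 0.05. Of the 11 genes of pyruvate entry and pyruvate dehydrogenase tested, Dld alone passed in the first comparison, where 23.1% of all genes did. Its log2 fold change was -0.42 (SE 0.11, edgeR adjusted p = 0.0162), and it passed in 15 of 20 other settings. None of the 7 genes of the pentose phosphate pathway, which branches off at glucose 6-phosphate, passed in any comparison with edgeR's quasi-likelihood test or DESeq2, or had an unadjusted p under 0.05, and their medians lay between -0.08 and 0.01. Markers of proliferating cells were lower in the first comparison (7 of 10 past the threshold) and those of macrophages and monocytes higher (10 of 12), and neither was tested as a source of the member values.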

How the data were processed

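The authors sequenced total RNA of 10 whole tumors as 3′ mRNA libraries, removed the first 12 bases (BBDUK) and the tails (fqtrim, cutadapt), used STAR for alignment to GRCm38, and counted reads per gene with featureCounts (annotation version 86). The deposited values are the authors' raw counts, with no replicates pooled. How strand, molecular identifiers and reads mapping to several genes were handled is not given in the sources used here. Groups come from the labels, which do not say that the samples of a group are from separate mice, so p-values measure the spread between these samples. Replicate libraries differed by a chi-square of 7.41 to 30.1 per degree of freedom, and none was counted as a repeat.

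GENCODE M21 (GRCm38) named 45143 of 45706 identifiers. In R 4.3.3, edgeR 4.0.16 (filterByExpr, TMM, quasi-likelihood test) fitted all 10 libraries in 1 model with 3 groups over 14550 genes, with Benjamini-Hochberg adjustment over all of them. A gene passed at an adjusted p at or under 0.05. The standard error is the log2 fold change over the root of F. CPM use library totals, and scores the mean of log2(CPM + 1), a pseudocount of 1 and no test. The code was tested on simulated data. The floor of 3 counts covers counting error alone, while the standard errors also take in the spread between samples. The members and the gene lists, named genes included, were chosen with earlier results of these data known. All members are named. From other pathway lists, at most 3 genes per comparison past the threshold with the largest change are, with Gapdh, Hif1a, Epas1, Vegfa, Ptgs1 and Ptgs2. A gene that falls under this rule is not reported here. Alternatives were DESeq2 1.42.0, library totals, other thresholds and filters, edgeR's likelihood ratio test, the title code as a term, fits of the compared groups alone, the label number as a block and each library left out. Leaving out 2 libraries together was chosen after seeing the data. Promoter sequences are from RefSeq (GRCm38.p6). Figures were drawn with matplotlib.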

Additional observations from a re-analysis of the deposited data

Results flagged for a closer look

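In 1 of the 36 sets of 4 Ptgs+/+ values examined (33 members and 3 scores), 1 sample stood far from the others. Pfkfb4, a regulator of phosphofructokinase, was at 16.9 CPM in Ptgs+/+ replicate 3, against 19.9 in the next library, and the gap took 0.845 of the group's range, above Dixon's 95% critical value for 4 samples. Chance flags about 1 in 20 such groups. The groups of 3 tumors were not examined in this way.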

How the results depend on the processing

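In Ptgs-/- against Ptgs+/+ tumors, 8 members passed (24.2%, against 23.1% of all genes), and the brackets below give the same 2 shares. The count was 0 under the added fold threshold of 1.5 (0%, against 4.15%). It was 12 with no filter (36.4%, against 12.1%), 11 with DESeq2 (33.3%, against 24.9%) and 10 with the likelihood ratio test (30.3%, against 25.1%). Requiring at least 10 counts in every library gave 10 (30.3%, against 24.1%), and library totals gave 9 (27.3%, against 22.9%). With the title code as a term it was 3 (9.09%, against 20.8%), and within code EB046 5 (15.2%, against 15.1%). With the 2 groups compared alone it was 1 (3.03%, against 18.4%), and with the label number as a replicate block 5 (15.2%, against 22.2%). Leaving out 1 library gave 2 to 9, where 13.9% to 26.9% of all genes passed. Without both Ptgs-/- replicate 1 and Ptgs+/+ replicate 2, a choice made after seeing the data, 4 passed (12.1%, against 16.6%). Pfkfb4 and Ndrg1 were higher and Pkm and Adm lower, and the median log2 fold change of the members was 0.0014. In NK-depleted Ptgs-/- against Ptgs+/+ tumors, 1 member passed (3.03%, against 12.5%), and none with the fold threshold. The count was 4 with DESeq2 (12.1%, against 15.6%), 6 with no filter (18.2%, against 7.32%) and 4 with the likelihood ratio test (12.1%, against 15.2%). Within EB046 it was 2 (6.06%, against 10.4%), with the 2 groups alone 3 (9.09%, against 13%) and without both libraries 2 (6.06%, against 9.61%). It was 0 to 6 when 1 library was left out, where 6.14% to 14.7% of all genes passed. The cause was not tested. Between the Ptgs-/- groups the count was 0 under every setting run. No named gene that passed with all libraries changed direction in that comparison. Among members that did not pass, the sign changed for 5 in the first comparison and 18 between the Ptgs-/- groups without Ptgs-/- replicate 1, and for 12 and 18 without both libraries. Over all genes, scaling by library totals moved the median by at most 0.054. Deviations of same-numbered samples correlated from -0.244 to 0.355, above 0.1 in 4 of 11 pairs. Samples of different numbers were not correlated, so whether label numbers pair the samples cannot be said.

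With 3 or 4 tumors a group, standard errors were 0.14 to 0.45 in the first comparison.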

Other observations

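Several lists of cell type markers moved between the groups in which the 33 genes were compared, and are given as values alone. In Ptgs-/- against Ptgs+/+ tumors, 9 of 10 NK cell markers tested and 8 of 9 T cell markers passed as higher and 6 of 10 neutrophil markers as lower, with edgeR's quasi-likelihood test. Fibroblast markers were higher for 5 of 10, skeletal muscle markers for 6 of 13, keratinocyte markers lower for 1 of 6, and none of 10 adipocyte markers passed, with none at an unadjusted p under 0.05 and none with DESeq2. In NK-competent against NK-depleted Ptgs-/- tumors, 10 of 10 NK cell markers passed as higher, with a summed level of 114 to 248 CPM against 13.5 to 14.2.

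Ldha and Ldhb encode the forms of lactate dehydrogenase that favor lactate and pyruvate. The ratio of their CPM within a library was 68.6 to 106 in Ptgs+/+, 99.7 to 154 in Ptgs-/- and 81.9 to 105 in NK-depleted Ptgs-/- tumors, so the 3 groups overlapped, and it was not tested.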
